A study of Nothobranchius furzeri with 20 samples.

Results

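The genes described here are the 100 with the most reads in the brain of the turquoise killifish, Nothobranchius furzeri, out of 26739 in the deposited count table. They were chosen by their mean CPM (a gene's reads per 1000000 reads counted in that library) over all 20 libraries. That choice fixes that their mean levels are high, and near the limit it can favour a gene that is high in 1 group only. Bulk brain RNA was sequenced from male fish of the strain MZM-04/10p at 2 ages, and every library came from a fish given either rotenone or the vehicle DMSO. The 4 groups were rotenone at 27 weeks, DMSO at 27 weeks, rotenone at 9 weeks and DMSO at 9 weeks, with 5 libraries in each. Rotenone was given at 1% of its LC50, the concentration that kills a set fraction of animals. Nothing in the labels says that the 5 libraries of a group came from separate fish or which were prepared together, so p-values measure the spread between libraries, and preparation cannot be told apart from age or treatment.

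Rotenone blocks complex I of the mitochondrial respiratory chain, and the turquoise killifish is a vertebrate with a short life that is used to study ageing. In a vertebrate brain a small number of genes usually gives a large share of the messenger RNA, among them genes for ribosomal proteins, the cytoskeleton, energy metabolism and myelin. The files give identifiers without gene names, and none of the 26739 identifiers matched the RefSeq gene table used, so no gene here is assigned to such a class. Brain markers could not be looked up for the same reason, and the labelled tissue was not checked against them. In bulk RNA, fewer cells of a type and less RNA per cell cannot be told apart.

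Library totals lay between 19433958 and 24159773 counted reads. The smallest count of a member in any library was 1408, which carries a counting error of 2.67%, and the median count was 23464.5, with an error of 0.653%. The spread between libraries was wider than that, with a median coefficient of variation within groups of 7.98%. It was 7.28% for the next 100 genes and 7.30% for the 800 after those. The members varied about as much as the genes ranked after them.

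Together the members held 13.8% ± 0.714 of all counts (SD over 20 libraries). The first gene alone held 0.621%, the first 4 held 2.05%, the first 10 held 3.76% and the first 50 held 9.60%. It took 1402 genes to reach 50% of the counts. The distribution was thus spread over many genes, with no single gene above 1 in 100 reads. Mean levels of the members ran from 715.0 to 6207 CPM, and 52 members were at 1000 CPM or above.

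**Figure D1:**
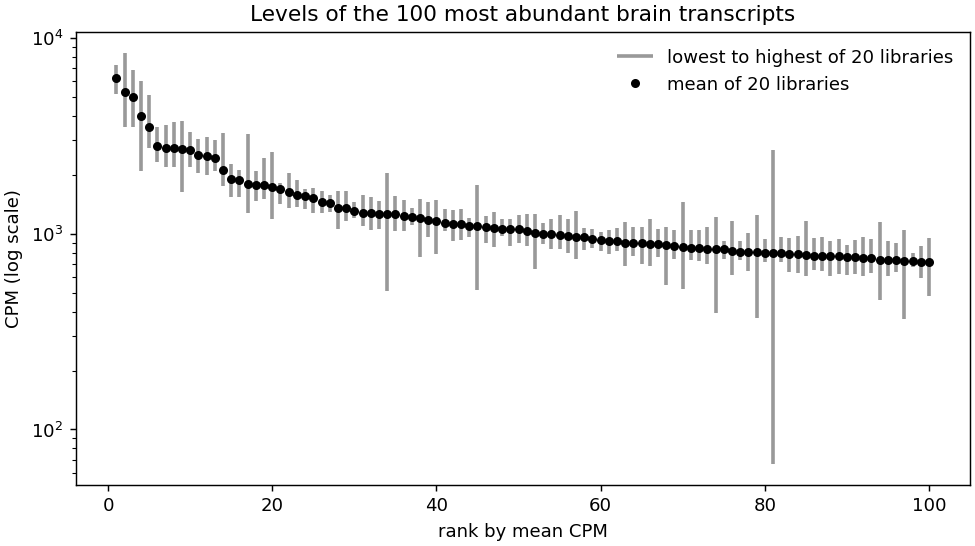
CPM (log axis) of the 100 members in order of rank, with a point for the mean of 20 libraries and a grey line to the lowest and highest library. Means fall from 6207 CPM at rank 1 to 715.0 CPM at rank 100, and the longest line, at rank 81, belongs to Nfu_g_1_007730.

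The limit fell in a stretch of near-equal genes. Nfu_g_1_010381 and Nfu_g_1_003104, the last members, averaged 717.9 and 715.0 CPM. Nfu_g_1_005188 and Nfu_g_1_014425, just outside, averaged 712.5 and 708.8 CPM. Membership at the edge was therefore a matter of small differences. In 18 members the mean of at least 1 group lay below 715.0 CPM, in 5 of them at 27 weeks under both treatments and in another 5 at 9 weeks under both. Members of that kind are in the list through the groups where they are high, so counts of calls over the members are a description. In single libraries, 66 members were among the top 100 genes of all 20 libraries, 27 in 11 to 19 of them and 7 in 10 or fewer. Each library's own top 100 held 83 to 94 of the members, and 151 genes entered the top 100 of at least 1 library. Choosing by the median CPM kept 97 of the members.

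Read counts also grow with gene length, so ranks by CPM order the genes by reads counted. Levels per length are given as RPKM, reads per 1000 bases of gene and 1000000 counted reads. The members were 354 to 26901 bases long, with a median of 2966.5, and their mean RPKM ran from 41.8 to 3241. Only 43 of them would be chosen by RPKM, and 4 ranked beyond 1000th on that scale. Nfu_g_1_016795, of 387 bases, had 3241 RPKM, the highest of any member. Nfu_g_1_003104, of 11461 bases, had 62.4 RPKM. A high read count thus stood for very different levels per length.

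The most counted gene was Nfu_g_1_019825, of 2314 bases, at 2682 RPKM. It had 5172, 5997, 5563, 5247 and 6017 CPM in the rotenone libraries at 27 weeks, against 7197, 5973, 6710, 7268 and 5971 CPM in the DMSO libraries at 27 weeks. At 9 weeks it had 6734, 6076, 6555, 6086 and 6365 CPM with rotenone, against 6285, 6342, 6416, 6631 and 5540 CPM with DMSO. The old rotenone libraries were lowest on average, but their range met those of the old DMSO and the young DMSO libraries. Nfu_g_1_020367 and Nfu_g_1_005244, ranked next, varied much more between libraries than with any group, by 22.2% and 17.4% within groups. Nfu_g_1_020367 ranged from 3551 to 8372 CPM in DMSO brains at 9 weeks alone. Its log2 difference with age was -0.19 ± 0.21 (SE) in DMSO fish, with an edgeR adjusted p of 0.535.

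The share of counts held by the members was 13.2% ± 0.428 in rotenone brains at 27 weeks and 13.8% ± 0.605 in DMSO brains at 27 weeks (SD, n = 5 each). It was 14.1% ± 0.577 in rotenone brains at 9 weeks and 14.1% ± 0.908 in DMSO brains at 9 weeks (SD, n = 5 each). The 95% Wilson interval of a single library's share was at most 0.0303 percentage points wide, which covers counting error only. The old rotenone group was the lowest, ranging from 12.5 to 13.7%, but it overlapped every other group. The shares are a description, with no test, since the members were chosen for their counts.

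**Figure D2:**
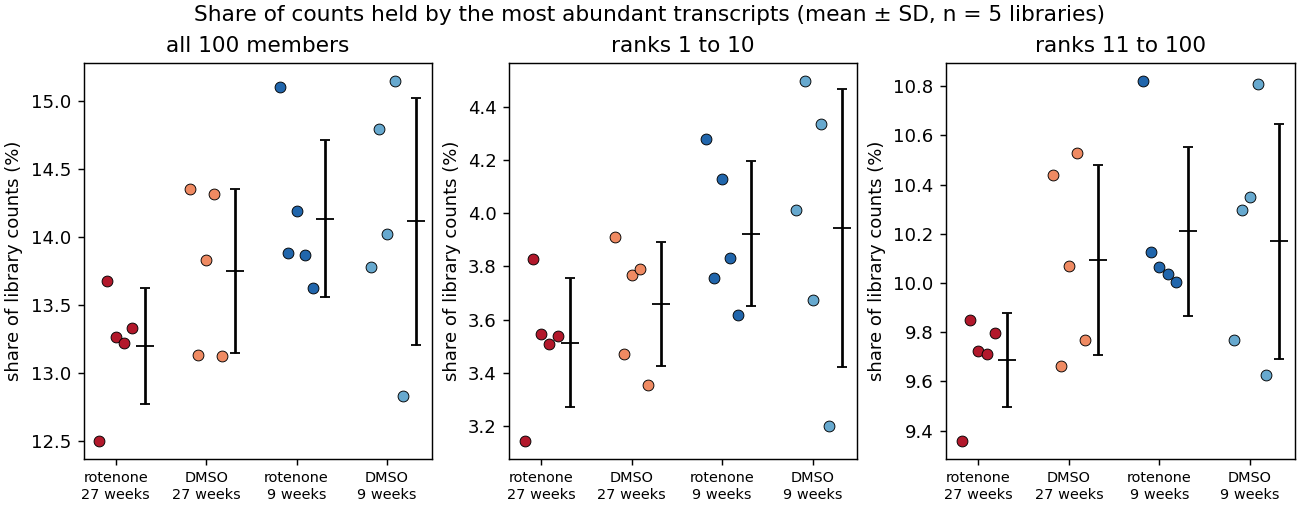
Share of each library's counts, in percent, held by all 100 members (left), ranks 1 to 10 (middle) and ranks 11 to 100 (right), with points for libraries and the mean and SD of 5; the axes do not start at 0. For all members the old rotenone libraries lie between 12.5 and 13.7% and overlap every other group.

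With age, the share was 0.934 percentage points lower in rotenone fish and 0.363 points lower in DMSO fish, against pooled SDs of 0.508 and 0.771. Among rotenone fish Nfu_g_1_013001 accounted for -0.197 points and Nfu_g_1_007730 for -0.143 points, while Nfu_g_1_008211 added 0.125 points. Ranks 11 to 100 held 9.69% in rotenone brains at 27 weeks and 10.2% in rotenone brains at 9 weeks, and those ranges did not overlap. Those ranks hold Nfu_g_1_007730, a member only through its levels at 9 weeks. They also hold members that are in the list through their levels at 27 weeks. The gap between the ranges thus depends in part on the choice of members and is a description. The gene-wise contributions are differences in mean CPM and carry no test.

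Age was tested for each gene with edgeR's quasi-likelihood test across the 19452 genes that passed the filter on low counts, all 100 members among them. Genes count as called where the p adjusted by Benjamini and Hochberg's method was below 0.05. In DMSO fish, 28 members were called, 5 higher and 23 lower at 27 weeks, against 23.5% of all genes tested, 9.64% higher and 13.8% lower. In rotenone fish, 33 members were called, 8 higher and 25 lower, against 31.1% of all genes, 12.9% higher and 18.2% lower. In this fit the totals lie near those of all genes. There the members had more calls lower and fewer higher at 27 weeks than all genes in both comparisons. The next 100 genes gave 32 calls in DMSO fish, 11 higher and 21 lower, and 34 in rotenone fish, 14 higher and 20 lower. The 800 genes after those gave 52 higher and 176 lower in DMSO fish, and 126 higher and 173 lower in rotenone fish. More calls lower than over all genes was thus seen in the next 100 genes too. The split in DMSO fish, 5 higher and 23 lower, moved with the processing. It was 15 higher and 19 lower when libraries were scaled by their totals, where all genes gave 11% higher and 11.6% lower. DESeq2 gave 20 higher and 23 lower, against 12.2% and 13.4% of all genes. Leaving out 1 library gave 2 to 21 higher. The 21, with 23 lower, came without DMSO replicate 5 at 27 weeks, against 10.4% and 13.3% of all genes. Fewer calls higher than all genes thus did not hold in every fit for DMSO fish. Nor did the total for DMSO fish lie near that of all genes in every fit. It was 43 with DESeq2, against 25.6% of all genes, and 44 without DMSO replicate 5 at 27 weeks, against 23.7%. When only the compared groups were fitted it was 17, against 16.1%.

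The changes were small. The median absolute log2 difference with age over the members was 0.18 in DMSO fish and 0.12 in rotenone fish, beside 0.20 and 0.23 over all genes tested, with a median standard error of 0.08 for the members and 0.12 for all genes. Over the next 100 genes, measured about as precisely as the members, it was 0.16 in DMSO fish and 0.14 in rotenone fish. The median signed difference was -0.03 and -0.04, beside 0.01 in both for all genes. Over the 100 genes with the highest mean RPKM the median signed difference was 0.11 in DMSO fish and -0.006 in rotenone fish. Its sign in DMSO fish thus depended on the measure used to choose the genes. A single member exceeded a log2 difference of 1 in each comparison, the same gene both times. Over the 20 libraries, 87 members had a highest CPM less than 2 times their lowest, a count not taken for other genes.

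**Figure D3:**
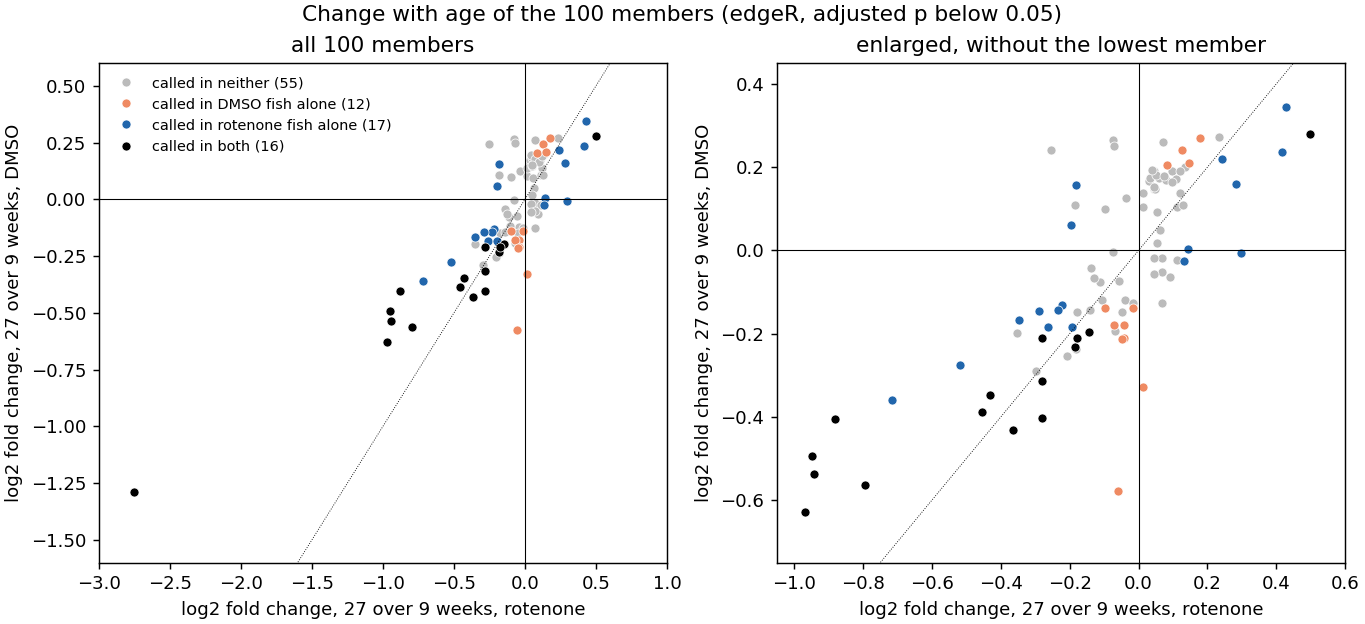
Log2 fold change with age (27 over 9 weeks) of each member in rotenone fish (horizontal) and in DMSO fish (vertical), coloured by where it was called, with the line of equal change dotted; the right panel enlarges the left without its lowest member. Of the 100 members, 82 have the same sign on both axes.

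The age comparisons in rotenone and in DMSO fish share no library. In both, 16 members were called, 15 of them lower and 1 higher at 27 weeks, with none in opposite directions. That is 48.5% of the calls in rotenone fish and 57.1% of those in DMSO fish, where over all genes tested the shares were 50.8% and 67.3%. The 16 of 100 members stand beside 15.8% of all genes called in both, and the 82 members of the same sign beside 77.7% of all genes. A further 17 members were called only in rotenone fish, of which 13 had the same sign in DMSO fish, and 12 only in DMSO fish, of which 11 had the same sign in rotenone fish. Being called in 1 comparison only does not show that the effects differ. Of the members, 5 averaged below 715.0 CPM at 27 weeks under both treatments, and another 5 did so at 9 weeks. Such members are in the list through the other age, so their changes with age are partly set by the choice of members. Nfu_g_1_007730, among the 15 called lower in both, is in the list through its levels at 9 weeks. The counts in both comparisons are thus a description.

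Nfu_g_1_013001, the fourth most counted gene, was lower in old brains under both treatments. It had 2082, 3106, 2729, 2535 and 3197 CPM in rotenone brains at 27 weeks, against 5028, 5016, 4623, 4682 and 4153 CPM in rotenone brains at 9 weeks. With DMSO it had 3738, 2865, 3334, 3674 and 3634 CPM at 27 weeks, against 4648, 5830, 4219, 5979 and 4395 CPM at 9 weeks. No old library reached the lowest young library of its treatment. The log2 difference was -0.80 ± 0.12 (SE, edgeR adjusted p = 5.54e-05) in rotenone fish and -0.56 ± 0.12 (edgeR adjusted p = 0.00212) in DMSO fish.

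Nfu_g_1_007730 had the largest fall in both age comparisons and the widest spread within groups, 42.14%. It is a member only through its levels at 9 weeks, so its fall is partly set by the choice of members and is given with no test. It had 66.5, 135.0, 433.1, 259.0 and 362.0 CPM in rotenone brains at 27 weeks, against 1809, 2666, 992.7, 1849 and 1085 CPM in rotenone brains at 9 weeks. With DMSO it had 315.7, 295.2, 561.2, 276.9 and 388.9 CPM at 27 weeks, against 453.0, 1046, 1296, 822.2 and 780.7 CPM at 9 weeks. The rotenone groups lay apart, and the DMSO groups overlapped. The log2 difference was -2.75 ± 0.44 (SE) in rotenone fish and -1.29 ± 0.41 in DMSO fish, and leaving out 1 library gave -1.10 at the least in DMSO fish.

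Nfu_g_1_016795, the member with the highest RPKM, fell too. It averaged 782.6 ± 182 CPM in rotenone brains at 27 weeks and 1518 ± 196 CPM in rotenone brains at 9 weeks (SD, n = 5 each). With DMSO it averaged 1079 ± 227 CPM at 27 weeks and 1638 ± 261 CPM at 9 weeks (SD, n = 5 each). The log2 difference was -0.97 ± 0.16 (edgeR adjusted p = 0.000219) in rotenone fish and -0.63 ± 0.16 (edgeR adjusted p = 0.00988) in DMSO fish.

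Among members called higher, Nfu_g_1_008211 had the largest difference in both comparisons. It had 4128, 5091, 3847, 4248 and 3780.2 CPM in rotenone brains at 27 weeks, against 2895, 3109, 2912, 2998 and 2913 CPM in rotenone brains at 9 weeks. With DMSO it had 4785, 3587, 3532, 3417 and 3304 CPM at 27 weeks, against 2858, 3259, 2843, 3426 and 2726 CPM at 9 weeks. The rotenone groups did not overlap, and the DMSO groups did, with DMSO replicate 1 at 27 weeks far above the rest. The log2 difference was 0.50 ± 0.10 (edgeR adjusted p = 0.000886) in rotenone fish and 0.28 ± 0.10 (edgeR adjusted p = 0.0473) in DMSO fish. Without that replicate the DMSO value was 0.16, with an edgeR adjusted p of 0.151, and the DMSO call was lost in 7 of the 10 fits that left out 1 library.

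**Figure D4:**
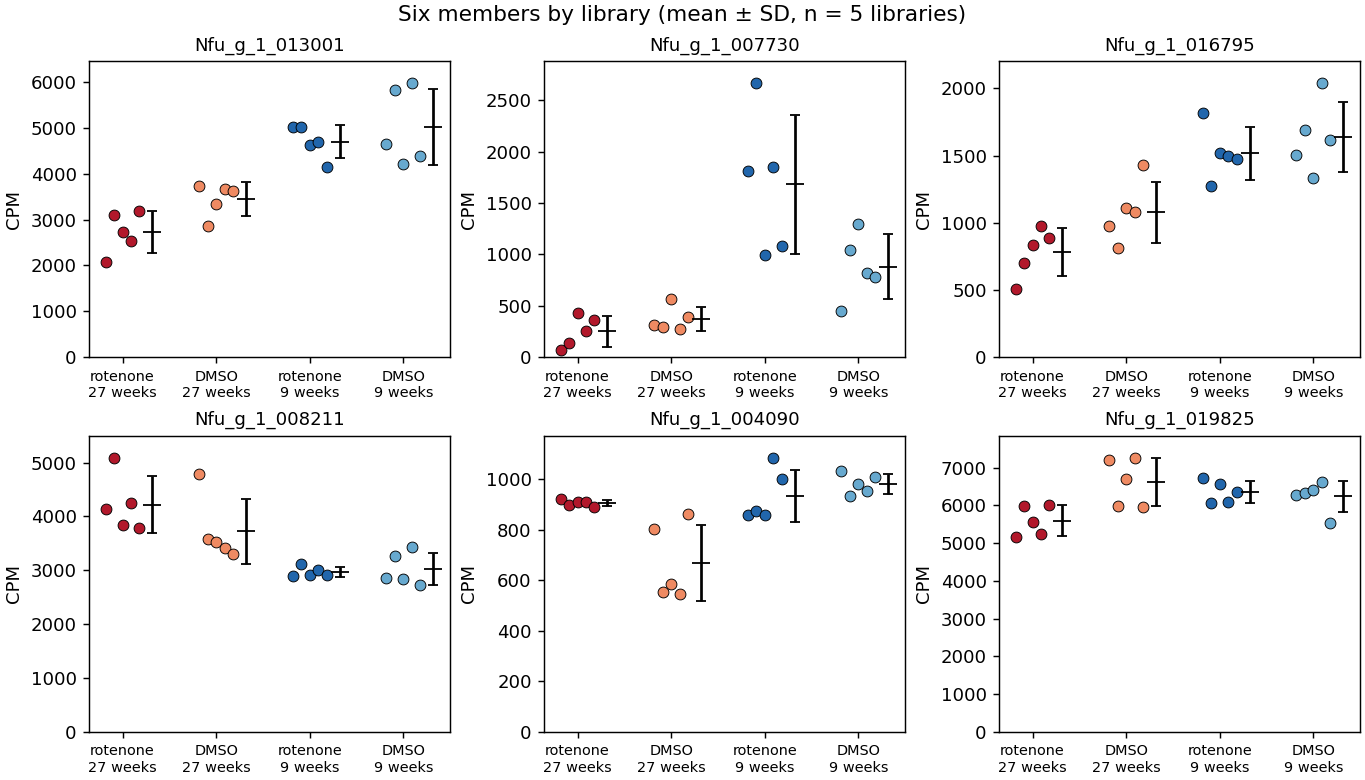
CPM of 6 members in every library, by group, with points for libraries and the mean and SD of 5. Nfu_g_1_013001, Nfu_g_1_007730 and Nfu_g_1_016795 are lower at 27 weeks, Nfu_g_1_008211 is higher, and Nfu_g_1_004090 spreads widest in the old DMSO libraries.

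The rule for named members gave 2 further rises. Nfu_g_1_000168, of 372 bases, averaged 880.3 ± 70.1 CPM in DMSO brains at 27 weeks and 717.5 ± 71.6 CPM in DMSO brains at 9 weeks (SD, n = 5 each), with a log2 difference of 0.27 ± 0.07 (edgeR adjusted p = 0.0135). In rotenone fish the difference was 0.18, with an edgeR adjusted p of 0.0744. Nfu_g_1_003104 averaged 828.2 ± 98.4 CPM in rotenone brains at 27 weeks and 611.0 ± 73.9 CPM in rotenone brains at 9 weeks, with a log2 difference of 0.43 ± 0.13 (SE). In DMSO fish it was 0.34. At rank 100 this gene is a member only through its levels at 27 weeks, so its rise is given with no test.

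At 27 weeks, none of the 100 members was called between rotenone and DMSO by edgeR, against 0.391% of all genes tested (0.149% higher and 0.242% lower), and 23 members had an unadjusted p below 0.05, against 14.4% of all genes. DESeq2 called 3 members, against 2.42% of all genes. The median log2 difference was -0.05 over the members and -0.01 over all genes. The member with the smallest p among those higher with rotenone was Nfu_g_1_004090. It had 920.6, 896.0, 908.9, 910.7 and 891.2 CPM with rotenone, against 801.6, 552.7, 584.3, 545.4 and 862.1 CPM with DMSO. Every rotenone library lay above every DMSO library, and 3 of the DMSO libraries were far below the other 2. The log2 difference was 0.45 ± 0.11 (SE). With age the same gene was lower in DMSO fish by a log2 difference of -0.58 ± 0.11 and in rotenone fish differed by -0.06 (edgeR adjusted p = 0.721). In old DMSO brains it averaged below 715.0 CPM, and it is a member through its other groups. Its rise with rotenone at 27 weeks and its fall with age in DMSO fish are thus partly set by the choice of members. Both are given with no test. Among members lower with rotenone, Nfu_g_1_012286 had the smallest p, with -0.46 ± 0.14 and an edgeR adjusted p of 0.136. Of the alternatives, only DESeq2 called it.

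At 9 weeks no member was called by edgeR, against 0.0257% of all genes (0.0206% higher and 0.00514% lower), or by DESeq2, against 0.483%. An unadjusted p below 0.05 was found for 4 members, against 6.99% of all genes. The smallest p in each direction belonged to Nfu_g_1_015310, with a log2 difference of 0.18 ± 0.07, and Nfu_g_1_018050, with -0.12 ± 0.05 (edgeR adjusted p of 0.529 and 0.635). The member with the highest difference was Nfu_g_1_007730, at 0.93 ± 0.41 (SE). It is a member only through its levels at 9 weeks, which were higher on average with rotenone. Its difference is thus partly set by the choice of members and is given with no test. Averaged over both ages no member was called by edgeR, against 0.344% of all genes (0.185% higher and 0.159% lower), or by DESeq2, against 1.54%. Here 12 members had an unadjusted p below 0.05, against 11.5% of all genes. For the difference of the rotenone effect between ages edgeR called no member, against 0.0206% of all genes (0% higher and 0.0206% lower), and DESeq2 called 1, against 0.730%. An unadjusted p below 0.05 was found for 16 members, against 10.0% of all genes. The median standard error of a member's log2 difference was 0.08 at either age, 0.05 over both ages and 0.11 for the difference between ages.

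Members differed by gene length, a grouping made after their values were seen. By their medians the length groups lay furthest apart in comparisons that use the old DMSO libraries. Of the 34 shortest members, 354 to 1948 bases long, 32 were lower and 2 higher with rotenone at 27 weeks, with a median log2 difference of -0.10. Of the middle 33, 25 were lower and 8 higher, with a median of -0.05. Of the 33 longest, 4870 to 26901 bases long, 12 were lower and 21 higher, with a median of 0.04. None of these differences was called, and 47.5% of all genes tested were higher. In DMSO fish the short members were higher with age in 22 cases and lower in 12, with a median of 0.13, and the long ones higher in 7 and lower in 26, with a median of -0.12. The other 2 comparisons leaned the same way for short and long members as age in DMSO fish, with medians nearer each other. For age in rotenone fish 19 short members were higher and 15 lower, with a median of 0.02. Of the long ones 13 were higher and 20 lower, with a median of -0.04. For rotenone at 9 weeks 21 short members were higher and 13 lower, with a median of 0.01. Of the long ones 12 were higher and 21 lower, with a median of -0.02. The rank correlation of length with the age difference over the 100 members was 0.09 in rotenone fish and -0.11 in DMSO fish. In 2 of the old DMSO libraries, replicates 1 and 4, the short members stood at a median of 0.20 above their mean over all libraries. In the other 3 old DMSO libraries that median lay between -0.06 and 0.05. At 9 weeks it was -0.23 in DMSO replicate 5, the largest departure of any library. It was -0.12 in DMSO replicate 1, 0.13 in DMSO replicate 4 and 0.09 in rotenone replicate 1 at that age. In old rotenone replicates 1 and 4 it was -0.09, and in replicate 2 it was 0.06. In old DMSO replicates 1 and 4 the middle members stood at a median of 0.15 and 0.07, and the long ones at -0.12 and -0.07. Leaving out these 2 libraries, picked for the short members' height, must bring the short members' medians down in the old DMSO group. Without those 2 libraries, 25 short members were lower and 9 higher with rotenone at 27 weeks, with a median of -0.02, and the median for age in DMSO fish was 0.02.

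**Figure D5:**
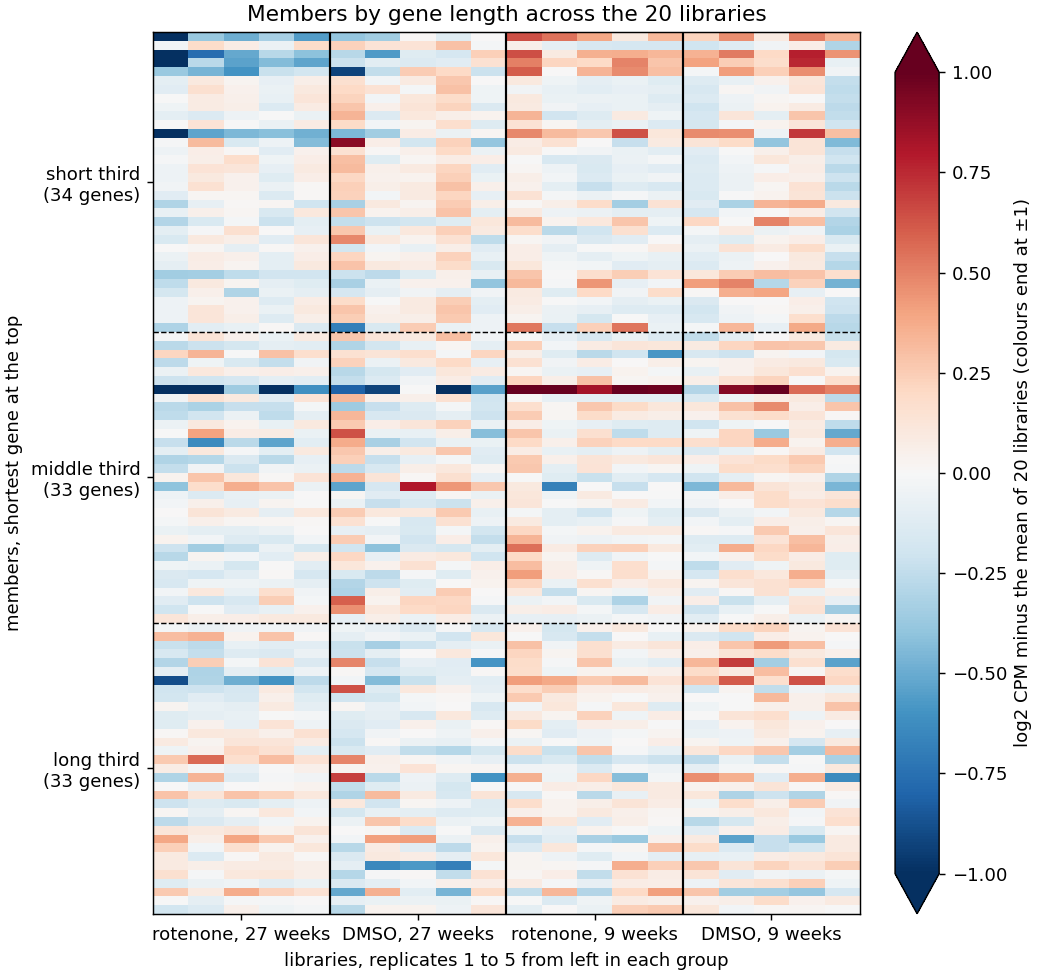
Log2 CPM of each member (1 line each, shortest gene at the top) in each library relative to its mean over 20 libraries, red higher and blue lower, with dashed lines between the length groups. Most short members are high in old DMSO replicates 1 and 4, and the dark line in the middle group is Nfu_g_1_007730.

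With age, 22 of the 34 shortest members were higher in DMSO fish and 19 in rotenone fish. A set of 5 of the short members, 354 to 738 bases long, was lower in both. Nfu_g_1_016795 and Nfu_g_1_012286, described above, are among the 5. They were picked after their values were seen, for log2 differences with age below -0.35 in both rotenone and DMSO fish, so their values are a description with no test. In old rotenone brains 3 of the 5, and in old DMSO brains 2, averaged below 715.0 CPM and are members through the young groups, so the shared fall is partly set by the choice of members too. Their summed level, in CPM after TMM scaling, was 3118 ± 471 in rotenone brains at 27 weeks and 5812 ± 576 in rotenone brains at 9 weeks (SD, n = 5 each). It was 4111 ± 574 in DMSO brains at 27 weeks and 5799 ± 857 in DMSO brains at 9 weeks (SD, n = 5 each). Their age differences ran from -0.97 to -0.72 on the log2 scale in rotenone fish and from -0.63 to -0.36 in DMSO fish. Between rotenone and DMSO at 27 weeks they differed by -0.46 to -0.23, the same direction as most short members, and none of the 5 was called.

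The spread of each member's log2 level over the 20 libraries was divided into parts for age, rotenone, their interaction and the differences within groups. The median parts were 25.2% for age, 2.77% for rotenone, 3.51% for the interaction and 61.6% within groups. Without any group difference the mean of each of the first 3 would be 5.26%. Such parts are skewed, with a median below their mean, so the medians here cannot be read against that value. The part within groups was the largest in 73 members and age in the other 27. Without any group difference the part within groups would on average hold all the rest of the spread. It would then be the largest in most genes by construction. The 61.6% and the 73 members therefore do not show that differences within groups were unusually large. These parts were not computed for all genes.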

How the data were processed

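RNA was sequenced from 20 killifish brain libraries in 4 groups of 5, prepared with a TruSeq kit, per the labels' protocols. Reads were processed with STAR 2.4.1d, featureCounts 1.4.6-p4 and bcl2fastq 1.8.4, per the submitters' processing notes. Genome build, annotation and strand setting: not given in the sources used here. The authors deposited raw counts per gene and RPKM values. The deposited RPKM values were recovered within 0.0011 RPKM for 99.997% of 431241 values above 0 when the library totals were taken in rotation down the table, and for 3.69% when each library's own total was used. The factor between the 2 was 0.804 to 1.24. RPKM was therefore recomputed from the deposited counts, each library's own total and the gene lengths that the deposited values imply.

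The 100 members are those with the highest mean CPM over all libraries. The members and lists were chosen with earlier results of these data known. Differences were tested on the deposited counts with edgeR 4.0.16 (R 4.3.3; filterByExpr, TMM factors 0.980 to 1.02, robust quasi-likelihood fit with 1 mean per group over all 20 libraries), with p-values adjusted over 19452 genes. The genes tested hold 99.96% of the counts. DESeq2 1.42.0, limma 3.58.1, other scalings, no filter, a fit on the compared groups alone, other choices of members and leaving out each library were alternatives. The fits were also run on simulated data with planted changes larger than most of the members' age differences. Recovery of changes as small as those was not examined. Named members are the 4 with the highest mean CPM, in each comparison up to 2 called members with the largest change in each direction (or the smallest p where none was called), the 2 with the widest spread within groups and the genes at ranks 99 to 102. No pair of libraries in a group agreed within sampling noise (chi-square per degree of freedom 7.80 to 57.1 over 40 pairs).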

Additional observations from a re-analysis of the deposited data

Results flagged for a closer look

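In 72 groups of 5 libraries, 68 of named genes and 4 of the members' share, the highest or lowest library was compared with its nearest neighbour. In 2 groups 1 library lay apart by more than 0.71 of the group's range, where chance gives about 1 in 20 groups, or 3.6 here. Nfu_g_1_008211 had 4785 CPM in DMSO replicate 1 at 27 weeks, with the nearest library of the group at 3587 CPM. Nfu_g_1_005188, the gene just outside the members, had 330.0 CPM in rotenone replicate 1 at 27 weeks, with the nearest library of the group at 469.4 CPM.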

How the results depend on the processing

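The number of members called for age in DMSO fish was 28 (23.5% of all genes). It was 43 with DESeq2 (25.6% of all genes) and 17 when only the compared groups were fitted (16.1%). With the 100 genes chosen by mean RPKM it was 24, 8 higher and 16 lower (23.5% of all genes). Leaving out 1 library gave 21 to 44 (18 to 23.7% of all genes), with 44 without DMSO replicate 5 at 27 weeks (23.7%). For rotenone at 27 weeks it was 0 with edgeR (0.391% of all genes) and 3 with DESeq2 (2.42%). Leaving out 1 library gave 0 to 1 (0.138 to 1.36% of all genes). For the difference of the rotenone effect between ages it was 0 with edgeR (0.0206% of all genes) and 1 with DESeq2 (0.73%). The cause was not tested. For age in rotenone fish the count was 33 (31.1% of all genes). It was 36 with DESeq2 (34% of all genes) and 38 when only the compared groups were fitted (34.5%). With the 100 genes chosen by mean RPKM it was 23, 3 higher and 20 lower (31.1% of all genes). Leaving out 1 library gave 24 to 30 (25.5 to 31% of all genes). The age difference of Nfu_g_1_002596 in rotenone fish, -0.05 on the log2 scale and not called, ran from -0.15 to 0.045 when 1 library was left out (0.016 without rotenone replicate 1 at 27 weeks). That of Nfu_g_1_019825 in DMSO fish, 0.06 and not called, was -0.041 without DMSO replicates 1 and 4 at 27 weeks, an alternative chosen after seeing the data. The age call of Nfu_g_1_019825 in rotenone fish (-0.20, edgeR adjusted p = 0.0359) was lost in 6 of 10 fits that left out 1 library. The members' share of counts ranged over all alternatives from 13.0 to 13.4% in rotenone brains at 27 weeks, 13.6 to 13.9% in DMSO brains at 27 weeks, 13.9 to 14.3% in rotenone brains at 9 weeks and 13.8 to 14.4% in DMSO brains at 9 weeks. No paired analysis was possible because the labels give no replicate numbers shared between groups.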
